A study of Mus musculus with 10 samples.

Results

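A set of 345 chromatin regions carried an ATAC-seq peak in both libraries of Piezo1 knockout cells and in neither library of GFP control cells. They were selected on those peaks: the 4 deposited peak lists were merged where peaks overlapped by at least 1 bp, and the 15 autosomes other than 1, 8, 15 and 16 were kept. The 345 regions, called knockout-only here, were 1.54% of the 22474 merged regions on those chromosomes and belong to 29289 merged regions in all. Because peak presence chose them, their presence in the knockout is not a result and was not tested. ATAC-seq finds open chromatin because the Tn5 transposase cuts and tags DNA most readily where it is exposed. The cells were C3H10 T1/2, fibroblast-like cells from mouse embryo that can form bone, cartilage and fat. The 2 control libraries came from cells labelled GFP, and the 2 knockout libraries from cells in which Piezo1 was disrupted with CRISPR/Cas9. Each transposition used 50000 cells, and the cells of all 4 libraries were kept in the same medium with no other agent named. The labels do not say whether the knockout is 1 clone or a pool, nor whether replicates came from separate cultures. A second experiment in the same line, labelled with the strain C57BL/6, compared RNA of 3 libraries from static cells with 3 from cells under cyclic strain, all grown for 48 h on collagen-coated flexible plates. The strain was a sinusoidal stretch of 10% at 0.5 Hz for 8 h per day over 3 days. Neither RNA group carried the knockout, so the RNA values below describe the response to stretch in cells with Piezo1.

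PIEZO1 is a cation channel of the plasma membrane that opens under membrane tension and lets calcium into the cell. In skeletal cells it is known as a sensor of load, acting through calcium-dependent signalling, YAP and TAZ and other pathways. An ATAC-seq peak marks DNA from which nucleosomes are displaced, at gene starts, where the transcription machinery assembles, and at distal elements that bind transcription factors. In the usual arrangement at an active gene start, open DNA lies just before the start, between well-placed nucleosomes.

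The sequences below come from knockout-only regions that cover bases before a gene start. They are the bases of a region that fall within the 250 bases before a gene's listed start, for the 8 highest-ranked regions with at least 100 such bases, predicted genes (named Gm, Rik or LOC) left out. Regions were ranked by the lower of their 2 fold enrichments in the knockout libraries. Bases are from RefSeq (GRCm38.p6, the mm10 build), written 5′ to 3′ on the gene's own strand. Capitals mark letters that match, on either strand, the GC-box of SP and KLF factors (GGGCGG), the CCAAT box of NF-Y or the motif of ETS factors (CCGGAA). Matches to the AP-1 motif of FOS and JUN dimers (TGANTCA), to the CRE motif of CREB and ATF factors (TGACGTCA) and to the motif of the factor NRF1 (TGCGCATGC) were marked in the same way.
Rps7 (chr12:28635973-28636203, minus strand): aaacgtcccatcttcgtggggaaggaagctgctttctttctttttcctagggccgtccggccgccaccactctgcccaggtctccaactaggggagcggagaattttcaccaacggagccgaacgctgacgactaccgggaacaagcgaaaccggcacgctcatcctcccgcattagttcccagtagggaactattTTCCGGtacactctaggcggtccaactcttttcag
Sdhaf3 (chr6:6955768-6955880, plus strand): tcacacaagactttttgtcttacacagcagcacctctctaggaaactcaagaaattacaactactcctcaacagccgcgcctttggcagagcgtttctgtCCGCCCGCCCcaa
Gtpbp10 (chr5:5559542-5559717, minus strand): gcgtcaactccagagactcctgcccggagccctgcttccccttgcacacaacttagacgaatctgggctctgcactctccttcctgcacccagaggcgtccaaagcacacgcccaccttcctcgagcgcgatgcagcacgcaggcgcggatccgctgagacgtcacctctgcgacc
BC024063 (chr10:82083070-82083195, plus strand): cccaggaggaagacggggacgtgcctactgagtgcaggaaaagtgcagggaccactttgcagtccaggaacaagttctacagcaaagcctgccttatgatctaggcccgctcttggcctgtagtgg
Zfp128 (chr7:12880928-12881130, plus strand): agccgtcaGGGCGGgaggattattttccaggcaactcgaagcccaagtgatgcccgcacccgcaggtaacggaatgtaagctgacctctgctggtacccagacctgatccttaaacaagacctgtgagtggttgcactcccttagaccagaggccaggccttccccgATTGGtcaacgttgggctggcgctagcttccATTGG
Ppp1r35 (chr5:137778654-137778769, plus strand): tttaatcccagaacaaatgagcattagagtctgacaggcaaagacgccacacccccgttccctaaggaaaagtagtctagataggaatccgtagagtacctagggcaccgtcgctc
Supt5 (chr7:28338857-28338969, minus strand): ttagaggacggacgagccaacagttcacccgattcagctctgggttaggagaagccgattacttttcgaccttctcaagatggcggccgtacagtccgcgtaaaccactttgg
Gtf2h4 (chr17:35673888-35673993, minus strand): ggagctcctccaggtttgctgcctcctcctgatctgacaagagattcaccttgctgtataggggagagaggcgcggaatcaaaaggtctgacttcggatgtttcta
Rps7 encodes a ribosomal protein, Sdhaf3 an assembly factor of mitochondrial complex II, Supt5 a subunit of a transcription elongation factor and Gtf2h4 a subunit of the general factor TFIIH. Gtpbp10 encodes a GTP-binding protein, Zfp128 a zinc-finger protein and Ppp1r35 a regulatory subunit of protein phosphatase 1. The Rps7 stretch held 1 ETS match, Sdhaf3 held 2 overlapping GC-box matches, and Zfp128 held 1 GC-box and 2 CCAAT matches. The other 5 stretches held none of the 6 motifs. Of these 8 regions, only that of Gtpbp10 reached the start itself. This was partly set by the choice, since asking for 100 bases before the start left out regions such as those of Aqr and Ift74.

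A missing peak shows that none was listed for that library, not that the DNA was closed, and the read depth of each library is unknown from peak lists. Control replicate 1 listed 15978 peaks, control replicate 2 listed 26652, and the knockout libraries listed 15980 and 13610. Of 7534 regions with a peak in both knockout libraries, 6123 also had one in both controls, 1017 had one in control replicate 2 alone, 49 in control replicate 1 alone, and 345 (4.58%) in neither. The number therefore turned on control replicate 2, the longest list: without it, 1446 regions met the rule. Without knockout replicate 1 there were 1023 and without knockout replicate 2 there were 1852, since then 1 knockout library sufficed. Without control replicate 1 there were 398. In the other direction, 2249 regions were present in both controls and in neither knockout library, 22.6% of the 9944 regions present in both controls. The cell type was checked on marker genes: 4 of 10 mesenchymal fibroblast markers, Col1a1, Vim, Pdgfrb and Twist2, had a peak within 1 kb in all 4 libraries, whereas Col3a1 and Pdgfra had none in any. None of 5 epithelial and 2 muscle markers had a peak in any library. Of the markers of other types, Sox9 (chondrocyte) had one in all 4 libraries, Runx2 (osteoblast) in 3, Pparg (adipocyte) in 2, and Tek (endothelial), Spi1 (haematopoietic) and Map2 (neural) in 1 each.

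The knockout-only regions were weak to middling peaks of their own lists. The authors' fold enrichment, a ratio to the local background of the same library, ran from 3.12 to 8.45 with a median of 4.92 in knockout replicate 1, and from 3.18 to 8.00 with a median of 4.61 in replicate 2. Their median percentile within the list was 38.9 in replicate 1 and 34.5 in replicate 2. In regions present in all 4 libraries the median fold enrichment was 6.08 and 5.73 in the same libraries. Control-only regions had medians of 4.75 and 5.33 in control replicates 1 and 2, whose whole lists had medians of 5.05 and 5.26. The median width of the knockout-only regions was 333 bp (202 to 834 bp), near the 352 bp of all merged regions. It was 428 bp for control-only regions and 749 bp for regions in all 4 libraries. Width spans all peaks merged into a region, so regions that join peaks of more libraries tend to be wider. Both knockout libraries placed their summits within 100 bp of each other in 243 regions, with a median gap of 61 bp. As a description over regions, which are not replicates, the Spearman correlation of the fold enrichments of both libraries was 0.45 in the 345 regions and 0.66 in the 6123 regions of all 4 libraries.

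**Figure D1:**
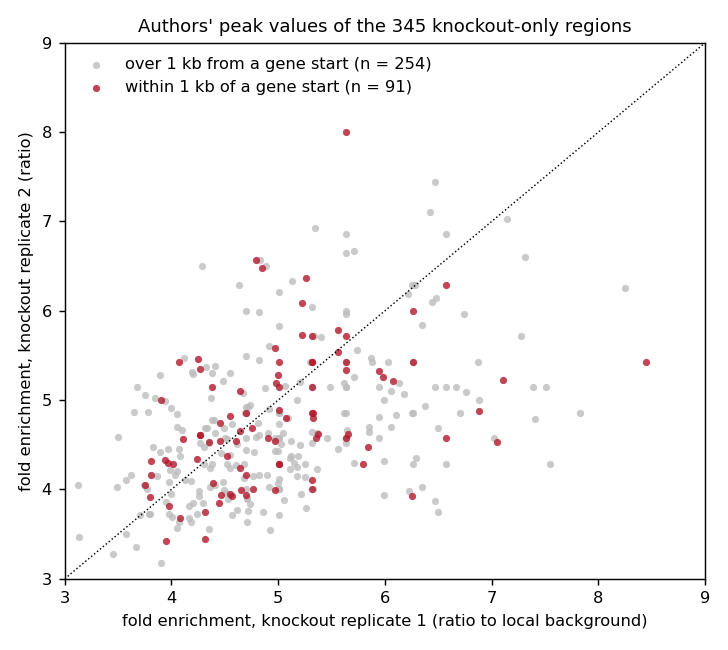
Each point is a knockout-only region, placed by the authors' fold enrichment in knockout replicate 1 (horizontal) and replicate 2 (vertical), both ratios to the local background of that library, with equal values on the dotted line. Regions within 1 kb of a gene start (91, red) and farther ones (254, grey) cover the same range.

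At the edge of the rule, the member with the lowest −log10 q in knockout replicate 1 lay at chr17:36236964-36237349 near Rpp21, with 2.64 there and 6.49 in replicate 2 (the authors' values). Just outside it lay a region at chr17:5491233-5491528 near the palmitoyltransferase gene Zdhhc14, with 13.6 and 7.26 in the knockout libraries and a control replicate 1 peak of −log10 q 2.82. A region at chr2:11365599-11365901, nearest to Pfkfb3, stood at 9.96 and 4.31 and was left out through a control replicate 2 peak of 2.91. The strongest region seen in knockout replicate 1 alone, at chr6:146410128-146410399, reached a fold enrichment of 7.54, which is above most members. Its nearest protein-coding gene start, that of the IP3 receptor gene Itpr2, was 91824 bp away.

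Most knockout-only regions lay away from gene starts. Within 1 kb of a start were 91 regions (26.4%, exact 95% binomial interval 21.8% to 31.4%), 226 (65.5%) were at 1 to 50 kb and 28 (8.12%) farther out, and 31 contained a start. Control-only regions were spread much alike, with 24.4% within 1 kb, although 13.3% of them were over 50 kb away. Regions in all 4 libraries sat mainly at starts, with 68.1% within 1 kb. Of all merged regions on these chromosomes, 43.4% lay within 1 kb of a start and 7.91% over 50 kb away. A protein-coding gene overlapped 177 of the 345 regions (51.3%), against 54.8% of control-only regions and 78.9% of those in all 4 libraries. Among all merged regions this share was 65.4%. Exons and introns were not assigned, because the gene tables used give gene spans only. Starts come from the RefSeq promoter table, and for genes it does not list, which were nearest to 119 of the 345 regions, the nearer end of the gene was used. The share at starts depended on how regions were joined: it was 45.9% when summits within 250 bp were joined in place of peaks, and 53.2% without control replicate 2. These intervals cover counting error only, and regions of 1 chromosome are not independent.

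**Figure D2:**
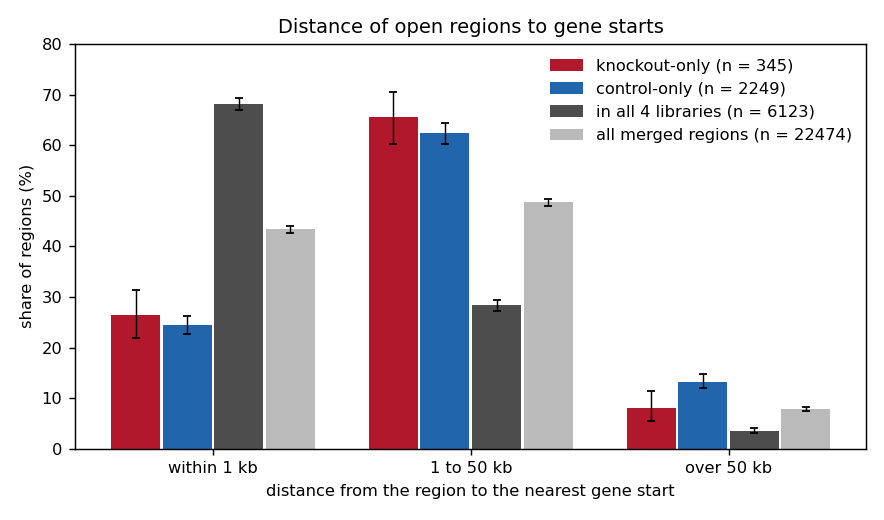
Bars give the share of regions (percent) by distance to the nearest gene start for 4 sets of regions, with exact 95% binomial intervals. Knockout-only and control-only regions stand at 26.4% and 24.4% within 1 kb. All merged regions stand at 43.4% and regions found in all 4 libraries at 68.1%.

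Part of the regions at gene starts flanked a region that the control libraries also had. A region with a control peak lay within 1 kb of 82 of the 345 (23.8%) and within 100 bp of 60 (17.4%). Among the 91 at gene starts these were 45, and among the other 254 they were 37. At gene starts the neighbour was present in all 4 libraries in 16 cases and in control replicate 2 alone in 12. In the reverse comparison, 12.6% of control-only regions lay within 1 kb of a region with a knockout peak. The shares do not compare like with like, since more merged regions carried a control peak than a knockout peak. The Rps7 region (chr12:28635973-28636246), the strongest member at a start with 6.57 and 6.29, lay 25 bp from a region present in all 4 libraries, where fold enrichments were 6.88 and 4.86 in the knockout and 6.53 and 5.96 in the control libraries. The Sdhaf3 region (chr6:6955613-6955880) lay 43 bp from a region with a peak in both controls and knockout replicate 1. The regions of Zfp128, Ppp1r35, Supt5, Gtf2h4 and BC024063 likewise lay 9 to 128 bp from a region with a control peak. Leaving out all members within 1 kb of a control region left 263, of which 46 (17.5%) were at gene starts. The part of these neighbours in the result was not tested.

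Most of the remaining strong members at starts stood apart from control regions. Aqr, encoding an intron-binding helicase of the spliceosome, had a region at chr2:114174996-114175320 with 5.63 and 5.72, and the nearest control region lay 87147 bp away. The region of Ift74, a subunit of the intraflagellar transport machinery of cilia, at chr4:94614477-94614757 contained the start and reached 5.63 and 8.00, the highest value of any member in knockout replicate 2. The highest in replicate 1 was 8.45, at the start of the zinc-finger gene Zscan22 (chr7:12897746-12898081), where replicate 2 had 5.43. Mfsd4b1, Gtpbp10, the Nudix hydrolase gene Nudt13 and the mitochondrial protease gene Afg3l2 also had their start (for Afg3l2, an end of the gene) inside the region, with 5.32 to 6.26 in replicate 1. The ribosomal protein gene Rpl6 had a region at chr5:121204586-121204815, 85 bp inside the gene, with 5.63 and 5.43. The start of the predicted gene Gm12530 lay in a wider region of 747 bp. For Cda, the cytidine deaminase gene, a control replicate 2 peak lay 180 bp from the region.

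In 50 regions, overlapping 57 promoter windows of 55 genes (from 250 bases before to 50 after a listed start), the summits lay mostly to either side of the start. In knockout replicate 1, 24 summits were over 100 bp before the start, 21 were 50 to 250 bp after it and 5 lay between, from 100 before to 49 after. In replicate 2 the counts were 23, 25 and 2. In the 3323 regions of all 4 libraries that overlap such a window, 18.4% and 15.9% of summits fell in that middle band. These bounds were set after the positions were seen. Within 100 bp on either side of the start were 9 and 11 of the 50 summits, against 32.2% and 29.6% in regions of all 4 libraries. The rule removed every region that met a control peak, so these positions are partly set by it, and no test was made. Examples before the start are Sdhaf3 (summits at −266 and −264), Vegfa, the vascular growth factor gene (−251 and −258, with a control replicate 2 region 267 bp away), and Tnfrsf1a, the TNF receptor gene (−170 and −238). Examples after it are Aqr (165 and 166), Mrpl33 (104 and 102) and Pigb (147 and 121). In 5 of the 50 regions, with starts of both strands, the side depends on the start used. The Pigb summits lie before the start of Pigbos1 on the other strand (−166 and −140).

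**Figure D3:**
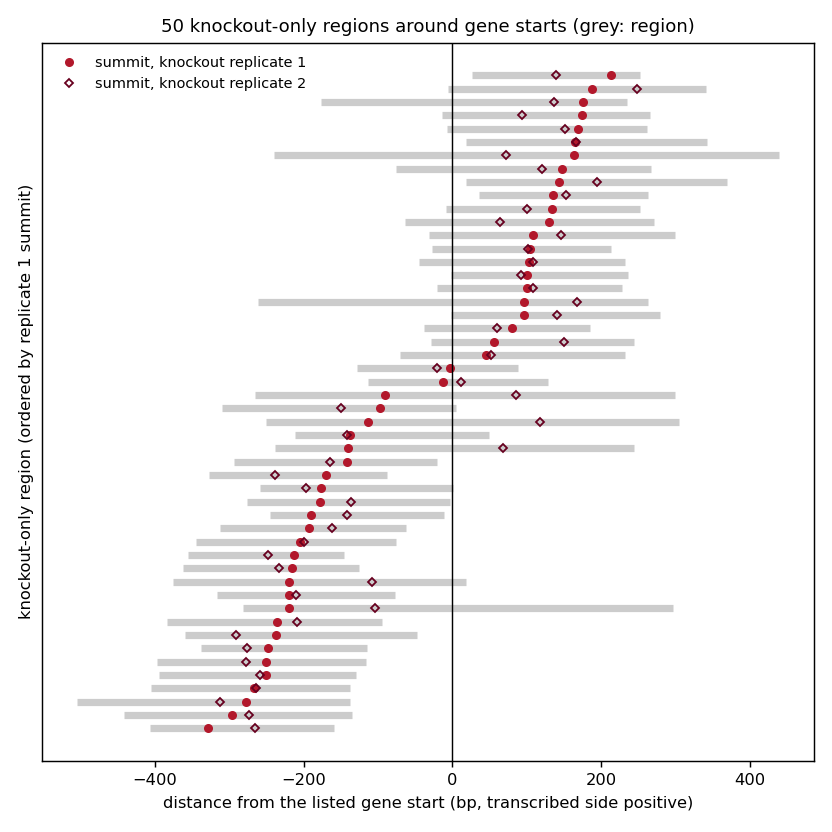
Each of the 50 knockout-only regions at a listed gene start is a grey bar on an axis of distance from the start (bp, transcribed side positive), with the summit in knockout replicate 1 (filled) and replicate 2 (open). Within 100 bp of the start on either side lie 9 and 11 of the 50 summits, of which 5 and 2 lie from 100 bp before to 49 bp after it.

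The 57 promoter windows had a median GC content of 59.3% and a median of 18 CpG dinucleotides, and 82.5% held at least 10 CpG. The median GC content was 63.3% in windows at control-only regions, 62.7% at regions of all 4 libraries and 53.0% in all promoter windows, and the shares with at least 10 CpG were 81.6%, 94.2% and 44.2%. The ETS letters were in 40.4% of them, against 29.4% of windows at control-only regions, 35.4% at regions of all 4 libraries and 15.1% of all promoter windows on the same chromosomes. The GC-box was in 50.9%, against 70.0%, 70.4% and 36.2% in the same order. CCAAT was in 42.1%, against 33.4%, 45.9% and 37.3%. AP-1 letters were in 2 windows (3.51%), against 8.19%, 4.46% and 7.88%, CRE letters in 1 and NRF1 letters in none. Letters of the TEAD factors (GGAATG), partners of YAP and TAZ, were in 12.3%, against 11.9%, 10.5% and 14.3% in the same order. RUNX letters (TGTGGT) were in 14.0%, against 13.0%, 11.6% and 16.6%. The estrogen receptor half-site (AGGTCA) was in 4 windows, 7.02%, against 14.0%, 9.25% and 16.1%. NFAT letters (TGGAAA), of the calcineurin-regulated factors, were in 22.8%, against 16.4%, 14.9% and 21.5%. The E-box (CANNTG) was in 54.4%, against 64.8%, 57.3% and 72.1%, and the CTCF core (CCCTC) in 66.7%, against 77.5%, 76.4% and 66.4%. C/EBP letters (TTGCNNAA) were in 5.26%, against 7.51%, 7.37% and 10.9%, and the TATA letters (TATAAA) in 10.5%, against 7.51%, 5.18% and 13.7%. The whole window was searched, also where a region covered only part of it, so a match may lie outside the region. A window may touch regions of more than 1 set. Both strands were searched, motifs may overlap, and a match describes letters only.

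The highest-ranked members lay mostly outside protein-coding genes and away from gene starts. The first, at chr3:121521395-121522217 within Slc44a3, a choline transporter-like gene, had fold enrichments of 7.14 and 7.03 and was 10127 bp from that gene's start. The next, at chr6:50848115-50848766, had 7.31 and 6.60, and its nearest protein-coding gene, the neuropeptide gene Npvf, was 193670 bp away. The third, at chr13:15298389-15298875 with 6.57 and 6.86, lay 164848 bp from Gli3, a transcription factor of the hedgehog pathway. A pair of regions shared Cxcl12, the chemokine of marrow stromal cells, as nearest protein-coding gene. They lay 110508 and 150796 bp from it, at chr6:117279043-117279803 (6.47 and 7.44) and chr6:117319331-117320144 (8.25 and 6.25). A region at chr11:100946690-100947422, with 6.74 and 5.96, was 7150 bp from the start of the cytokine-activated factor gene Stat3. Others of the first 15 had Csl, Stk38l, Thumpd3, Lacc1, Gas7, Tbc1d30 and Zfp704 as nearest protein-coding genes, at 14695 to 237175 bp. Except for Csl, a gene of another kind lay nearer, such as 4930432O09Rik at 3310 bp from the region given for Tbc1d30. Of these 15, only the regions of Rps7 and Sdhaf3 were within 1 kb of a start.

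Of 20 gene lists on skeletal lineages, matrix, mechanosensing and signalling, 351 genes lay on the 15 chromosomes. Of them, 13 (3.70%) were the nearest protein-coding gene of a knockout-only region within 100 kb of their start. The same 100 kb limit held for the shares that follow. The share over all 16963 protein-coding genes was 1.69%. Listed genes were also nearest to control-only regions more often than all genes, 25.6% against 8.70%, and to regions in all 4 libraries, 42.2% against 28.3%. Lineage regulators of tendon and cartilage among the 13 were Mkx, the tendon factor Mohawk, and Sox5. The Mkx region, at chr18:7004850-7005150 with 5.33 and 4.86, lay 71 bp beyond an end of the gene and 19 bp from a region of control replicate 2 alone. Sox5 had a pair of regions inside the gene, at chr6:143916288-143916740 (4.69 and 4.57), 275122 bp from any control region, and, over 100 kb from its start, at chr6:144056594-144057252 (6.02 and 5.43). Basement membrane genes gave Col18a1, Lama5 and Lamb1, and Col18a1, which encodes the collagen that releases endostatin, had 3 regions. A pair of them lay side by side within the gene, at chr10:77116426-77116739 (3.79 and 3.72) and chr10:77116765-77117164 (3.75 and 4.05), and the third, at chr10:77130487-77130734, was 31 bp from a control region. Among mechanically gated channels, 1 of 18 genes was reached: Trpv4, a calcium-permeable channel, by a region inside the gene at chr5:114651040-114651587 with 4.30 and 4.47. The focal adhesion gene Fermt2 (kindlin-2) had a region of 7.54 and 4.29, 37468 bp from its start, and Tead4, a DNA partner of YAP and TAZ, a region of 4.49 and 4.69. Signalling genes gave 1 each: Bmpr1a, a BMP receptor (3.76 and 5.06), Lrp5, a Wnt co-receptor (5.85 and 4.64, with a control region 64 bp away), and Spry2, an inhibitor of receptor tyrosine kinase signalling (3.12 and 4.05, the lowest-ranked member, 1798 bp from its start). Farther regions nearest to Spry2, at 116968 and 152193 bp, had 5.01 and 4.57, and 7.02 and 4.57. The osteoblast list gave Sparc, encoding osteonectin, 33435 bp from a region of 6.47 and 5.14 that lay 47 bp from a control region, and the adipocyte list gave the leptin gene Lep. No listed gene for muscle, fibrillar matrix, matrix proteases, contractile proteins or calcineurin signalling was nearest to a knockout-only region within 100 kb. The same held for immediate-early response, osteoclast regulation, estrogen signalling, patterning and other cell types.

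Several members came in neighbouring pairs. By nearest gene of any kind the predicted gene Gm30284 had 3 regions, and Col18a1, Galnt9, Mapt, Plin2 and Ppard had 2 each, as did 8 predicted or pseudogene models. By nearest protein-coding gene, Col18a1, Spry2 and Prkce had 3 each. The Prkce regions, inside this protein kinase C gene, included chr17:86499561-86499952 (5.71 and 6.67) and chr17:86499961-86500241 (5.85 and 4.69), only a few bases apart. Members this close share their surroundings and are not independent of each other. Plin2, which coats lipid droplets, and Ppard, a nuclear receptor for fatty acids, each had such an adjacent pair, at 4.51 and 3.97 and at 3.65 and 4.87 for the first of each.

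Chromosomes 14 and 10 held the most members for their number of merged regions, 30 of 1131 (2.65%) and 38 of 1565 (2.43%). Chromosomes 9 and 18 held the fewest, 10 of 1339 (0.747%) and 8 of 936 (0.855%). Chromosome 10 also took a larger share of all peaks in the knockout lists, 7.46% and 7.001%, than in the control lists, 6.41% and 6.61%. On chromosome 14 these shares were 5.04% and 4.92% against 4.94% and 4.73%, and on chromosome 18 they were 3.49% and 3.37% against 4.11% and 4.26%. Whether the copy number of these chromosomes differed between the lines was not tested.

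**Figure D4:**
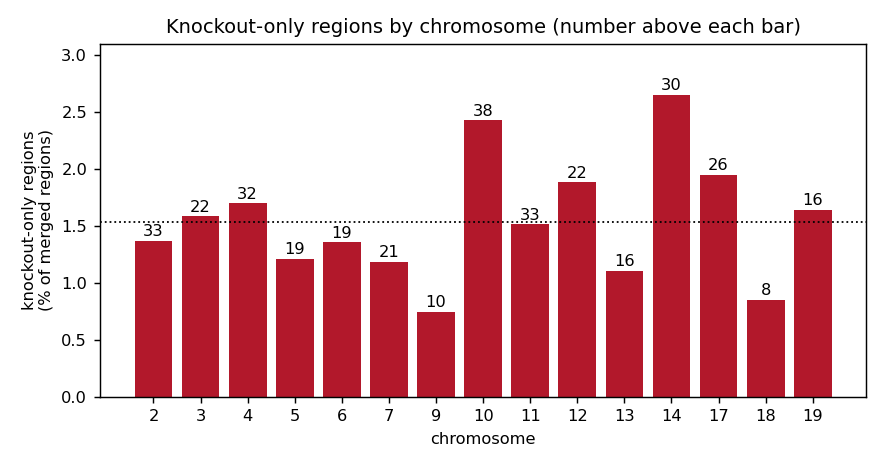
Bars give the knockout-only regions as a percentage of the merged regions of each chromosome, with their number above each bar and 1.54%, the value over all 15 chromosomes, as a dotted line. Chromosomes 14 and 10 stand highest at 2.65% and 2.43%, and chromosome 9 lowest at 0.747%.

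The RNA libraries were used to ask whether genes beside knockout-only regions responded to stretch in cells with Piezo1. Over all 15335 genes tested, 911 (5.94%) were called higher and 1134 (7.39%) lower under strain, at an adjusted p under 0.05 in edgeR's quasi-likelihood test with Benjamini-Hochberg adjustment. Within 50 kb, 317 regions had 306 nearest genes, of which 161 had enough counts to be tested. Of these, 14 (8.70%) were higher and 11 (6.83%) lower, shares near those of all genes, and their median log2 fold change was 0.01, against 0.00 over all genes. With library size alone as scaling, 21 were higher and 8 lower beside 1169 and 935 over all genes. The counts rested on single libraries, as did those over all genes. Without static replicate 1 they were 6 higher and 2 lower, beside 369 and 610 over all genes. Without strain replicate 2 they came to 8 and 3, beside 420 and 661. Leaving out strain replicate 3 gave 6 and 2, beside 404 and 577. Without static replicate 2 the lower genes numbered 17 beside 1244, and without static replicate 3 they numbered 5 beside 843. In such bulk RNA, fewer cells of a type and less RNA per cell cannot be told apart.

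Genes called higher included a metabolic enzyme, a matrix protease and a tendon factor. Pcx, the pyruvate carboxylase gene, had 111, 127 and 114 CPM (counts scaled to a common library size by TMM) in static and 169, 205 and 205 CPM in strained libraries, a rise of 0.72 on the log2 scale (SE 0.11, adjusted p = 0.00248). Adamts7, a matrix protease gene, had 28.7, 28.6 and 25.8 CPM against 41.4, 54.8 and 58.2 CPM (log2 fold change 0.89, SE 0.14, adjusted p = 0.00227). Its region, at chr9:90198642-90199002 with 6.47 and 3.87, was 36581 bp from any control region. Mkx, with the region described above at its end, had 38.5, 40.9 and 36.4 CPM against 56.9, 62.5 and 50.8 CPM (log2 fold change 0.56, SE 0.11, adjusted p = 0.00886). Rap1gap, which switches off the small GTPase RAP1, and March3, a ubiquitin ligase gene, rose 1.67-fold and 1.63-fold. In these 5 genes every strain library lay above every static one, and their calls held under all 10 alternatives run for each gene. Pigb, of GPI anchor synthesis, and Scarb2, a lysosomal membrane protein gene, had log2 fold changes of 0.74 and 0.48, but both calls were lost without static replicate 1, strain replicate 2 or strain replicate 3, and that of Pigb also without static replicate 3.

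Genes called lower included Celf2, an RNA-binding splicing regulator, with 21.4, 17.7 and 23.9 CPM in static and 11.0, 7.83 and 8.41 CPM in strained libraries. Every strain library lay below every static one, and the log2 fold change was −1.21 (SE 0.17, adjusted p = 0.00134). Its region, at chr2:7060723-7061016 inside the gene, had 4.05 and 4.85. Clu, encoding the secreted chaperone clusterin, had 66.9, 72.0 and 79.0 CPM against 51.7, 44.1 and 40.5 CPM (log2 fold change −0.68, SE 0.12, adjusted p = 0.00473). The calls of Celf2 and Clu also held under all 10 alternatives. The ribosomal protein genes Rpl6 and Rpl34 had log2 fold changes of −0.63 and −0.56 (adjusted p = 0.0349 and 0.0445), and both had a region at or beside the start. Static replicate 3 was the highest library for both, at 1118 and 648 CPM, and both calls were lost without it and without static replicate 1, strain replicate 2 or strain replicate 3; that of Rpl34 was lost without strain replicate 1 and with library size alone too. Rps7 stood at −0.48 and was not called (adjusted p = 0.0529), although DESeq2 called it, as did edgeR without static replicate 2 or strain replicate 1, with no filter on low counts and with a replicate block. Reads of these genes may be shared with near-identical pseudogene copies. Fbxl15, Bbc3, Mpg and Rhobtb1 were between −0.71 and −0.50, and each lost its call without static replicate 1, strain replicate 3 and, but for Rhobtb1, static replicate 3 and strain replicate 2. Fbxl15 and Mpg lost theirs without strain replicate 1 too. Col18a1, with 3 regions, had 41.5, 40.4 and 37.0 CPM against 30.0, 29.2 and 30.6 CPM (log2 fold change −0.41, SE 0.10, adjusted p = 0.026), a call lost without each of static replicates 1 and 2 and strain replicates 2 and 3.

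**Figure D5:**
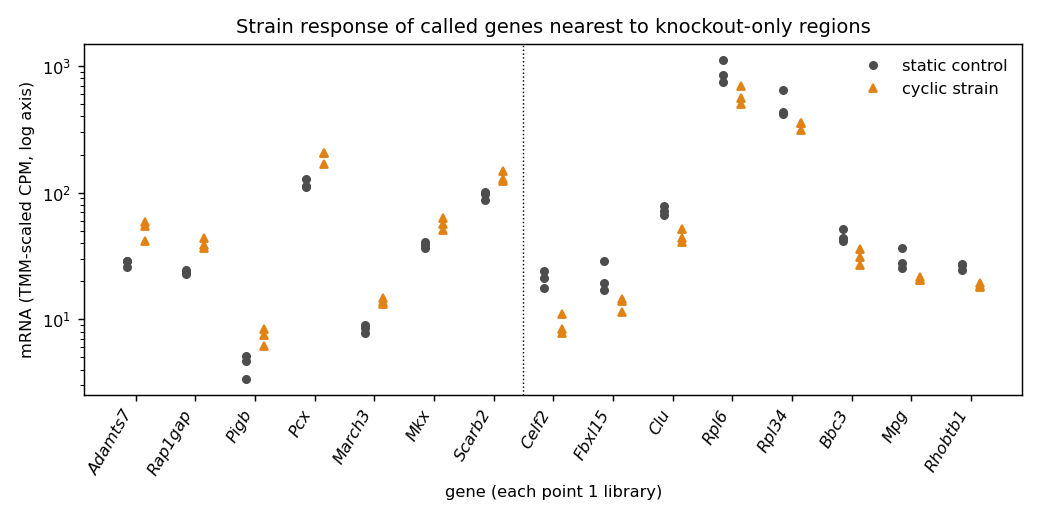
Points are TMM-scaled CPM (log axis) of single libraries, 3 static (circles) and 3 strained (triangles), for 15 called genes nearest to knockout-only regions, 7 higher (left of the dotted line) and 8 lower under strain. In each of them the strain libraries all lie on 1 side of the static ones, as for Celf2, with at most 11.0 CPM under strain and at least 17.7 CPM without.

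The other called genes within 50 kb were Abtb2, Aco1, Epb41l1, Galm, Slc9a8 and Ppard, higher, and Sdc4 and 1700021F05Rik, lower. Ppard varied most, at 7.35, 0.508 and 11.2 CPM under strain against 0.784, 0.787 and 1.36 CPM, so its groups overlap, and its call was lost in DESeq2 and without each of 5 libraries, all but strain replicate 2. Each of the other 7 calls was lost without static replicate 1, without strain replicate 2 and without strain replicate 3. Beyond 50 kb or by nearest protein-coding gene, Sparc fell by 0.70 on the log2 scale (SE 0.11, adjusted p = 0.00275), from 6191, 6167 and 7335 CPM to 3790, 4197 and 4120 CPM. Gas7 (−0.54, adjusted p = 0.0455) and Zfp704 (0.48, adjusted p = 0.0441) were called, and both calls were lost without each of 5 libraries, static replicates 1 and 3 and strain replicates 1 and 3 among them, and that of Gas7 with library size alone. Stat3 (0.29), Cxcl12 (−0.20), Bmpr1a (0.18), Lrp5 (−0.18), Fermt2 (−0.30), Tead4 (0.30) and Spry2 (0.23) were not called, with adjusted p from 0.0871 to 0.390. Cxcl12 was the most abundant of these, at 1730 ± 57.6 CPM in static and 1506 ± 187 CPM in strained libraries (SD, n = 3 each). Trpv4 and Sox5 were not called either and had very few counts. Their means were 0.256 and 0.525 CPM in static and 0.262 and 0.568 CPM in strained libraries.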

How the data were processed

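ATAC-seq was measured in 4 and RNA-seq in 6 libraries. For ATAC-seq the submitters' processing notes name mm10, MACS2, Bowtie2 2.4.2 and Trim Galore 0.6.5, and for RNA-seq STAR, HTSeq and DESeq2. Thresholds, duplicate removal, read shifting and the strand setting of counting were not given in the sources used here. Each library has 1 peak list deposited by the authors, with a fold enrichment ratio and −log10 p and q values for each peak, and 1 table of read counts per gene symbol. Peaks overlapping by 1 bp were merged, and presence in a library meant a peak of that library. No test was made of peaks. Members, lists and motifs were chosen with earlier results of these data known. The regions named are the 15 with the highest lower fold enrichment, the 15 highest within 1 kb of a gene start, up to 4 per gene list within 100 kb, and those of genes with the most regions. Of called genes within 50 kb whose average log2 CPM reached 2, the 8 with the largest change in each direction are named; any other name was chosen after its values were seen. A result of that rule is withheld and not reported here, though the counts include it. Strain was compared with static (3 libraries each) by the two-sided quasi-likelihood test of edgeR 4.0.16 (R 4.3.3), after filterByExpr and TMM scaling. Totals were 36150738 to 41024689 counts, and replicate pairs differed beyond sampling noise (chi-square per degree of freedom at least 9.77). Separate cultures are not named, so the p-values reflect only how far these libraries differed, possibly for technical reasons. Amplified cDNA without molecular identifiers gives reads that need not be independent molecules. The merging and the test were tested on simulated data.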

Additional observations from a re-analysis of the deposited data

How the results depend on the processing

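Alternatives were planned except leaving out members beside control regions and using only starts of the promoter table, which were chosen after seeing the data. The number of knockout-only regions was 621 with summits joined within 250 bp, 398 to 1852 with 1 library left out, and 457 over all autosomes. The share within 1 kb of a start was 33.5% with peaks of −log10 q of 5 or more, 45.9% with joined summits, 35.1% at 2.5 kb, 21.4% for protein-coding genes, 17.5% without members beside control regions, 19.9% with the promoter table alone, and 26.0% to 53.2% with 1 library left out. The share over 50 kb was 18.7% with the promoter table alone and 4.98% to 9.02% with 1 library left out. Over all genes, no filter gave 1428 higher, and leaving out 1 library gave 369 to 1085 higher and 577 to 1244 lower. For nearest genes, no filter gave 17 lower, beside 1574 over all genes, and DESeq2 1.42.0 gave 23 higher, beside 1320. A 1 kb limit, with 72 genes tested, gave 5 higher (6.94%) and 2 lower (2.78%). The nearest protein-coding genes, 212 tested in place of 161, gave 22 lower (10.4%). Leaving out 1 library gave 6 to 13 higher and 2 to 17 lower among nearest genes. The causes were not tested, except that the 1 kb limit covers fewer genes and the protein-coding choice more. The labels do not say whether replicate numbers pair the RNA libraries. Deviations of same-numbered libraries from their group means correlated at 0.03, 0.21 and 0.09, which does not settle it. A replicate block gave 1557 genes higher and 1619 lower over all genes, and 24 higher and 22 lower among nearest genes. It also called Fermt2 and Rps7. No gene named with a call changed direction in any alternative. Peak lists carry no depth, so absence of a peak in a shallower library cannot be separated from lower accessibility.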
